A study of Sus scrofa with 13 samples.

Results

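Longissimus dorsi, the long skeletal muscle of the back, was compared between newborn pigs and pigs 240 days after birth. The comparison used 2 of the 13 total RNA libraries of the series, 1 from day 0 and 1 from day 240, both from Guizhou mini-pigs, a small Chinese breed. Its members were the genes with an Ensembl identifier and at least 1 RPKM (reads on a gene, scaled to its length and to the reads of the library) in either library. They numbered 7466 of 21607 Ensembl genes (34.6%). A gene symbol could be paired with 4868 of them (65.2%), and the remaining genes were counted but are mostly not named.

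The series was made to catalogue long noncoding RNAs of the pig, and only genes with an Ensembl identifier were used here. The other libraries covered the same muscle at day 30, 8 other organs of Guizhou mini-pigs at day 240 (adipose tissue, heart, kidney, liver, lung, ovary, spleen and testis), and 2 pools that mixed RNA of several breeds and ages, 1 of them from longissimus dorsi. Ribosomal RNA had been depleted. The labels name neither the number nor the sex of the animals behind each library, and they name SMART and dUTP as library protocols without saying which library had which. With 1 library at each age, age cannot be told apart from the animal, the dissection or the library, and no test between ages was possible. The differences below are therefore descriptions of these libraries.

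After birth, skeletal muscle of mammals grows mainly by thickening and lengthening of fibres that formed before birth. During this time, developmental forms of the contractile proteins are usually replaced by adult fast or slow forms, and fast fibres come to rely more on glycolysis, the breakdown of glucose and glycogen to lactate. Longissimus dorsi of adult pigs is known as a mostly fast, glycolytic muscle.

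Whole reads were recovered from the RPKM values, and 7286564 reads lay on the features listed at day 0, 3619631 at day 30 and 7153676 at day 240. The single-tissue libraries ranged from 3619631 to 12297557 reads. The depth was thus nearly the same at the ages compared, and the day 30 library was the shallowest of them all. The markers of skeletal muscle summed to 8038 RPKM at day 0 and 15876 RPKM at day 240, and 7 of the 7 with an identifier were members. The markers of liver had no member, and 7 of 8 were listed at 0 at day 0. The tissue label was therefore matched by the markers. A level listed at 0 is a value of the file and not proof that the gene was silent. In bulk RNA, fewer cells of a type and less RNA per cell cannot be told apart.

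Differences were taken as log2(RPKM + 0.1) at day 240 minus day 0, which understates the change of low genes. RPKM gives a share of each library, so a few very high genes can push all others down. In the day 0 library the 10 highest genes held 24.7% of the RPKM sum, and in the day 240 library they held 37.2%. The 100 highest held 53.8% and 68.4%. Differences were therefore computed as deposited, with day 240 scaled to the RPKM sum of day 0, and with day 240 scaled so that the median ratio of genes of at least 1 RPKM in both libraries was 1. The last scaling multiplied the day 240 values by 1.42. The RPKM sum was 114421 at day 0, 76605 at day 30 and 121890 at day 240, so the day 30 values, printed as deposited, would be 1.49 times higher with the same sum and 1.74 times higher with the same median ratio. In the text below, "rose" and "fell" are used only of genes at least 2-fold apart under all 3 scalings, and a log2 difference is given as deposited unless another scaling is named.

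As deposited, 557 of the 7466 genes were at least 2-fold higher at day 240 (7.46%) and 2773 at least 2-fold lower (37.1%). With the same RPKM sum, 501 (6.71%) were higher and 3029 (40.6%) lower. With the same median ratio, 1011 (13.5%) were higher and 1605 (21.5%) lower. The share of higher genes among all those past 2-fold was 16.7%, 14.2% and 38.6% in this order. Under all 3 scalings, 501 genes rose (6.71%) and 1605 fell (21.5%), and the other 5360 did neither. Each scaling applies 1 factor to all genes, so these are the counts of the strictest scaling for each direction. That is the same sum for rises and the same median ratio for falls. As deposited, a gene thus had to differ by more to count as a fall than as a rise. The same median ratio multiplies every day 240 value by 1.42, which is too little to turn a 2-fold difference into a 2-fold difference the other way. It changed the sign of 1210 genes. The median log2 difference over all 7466 genes was -0.69 as deposited, -0.78 with the same sum and -0.21 with the same median ratio. The balance between rising and falling genes was thus set to a large extent by the scaling, which moved the median by up to 0.48 on the log2 scale.

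**Figure D1:**
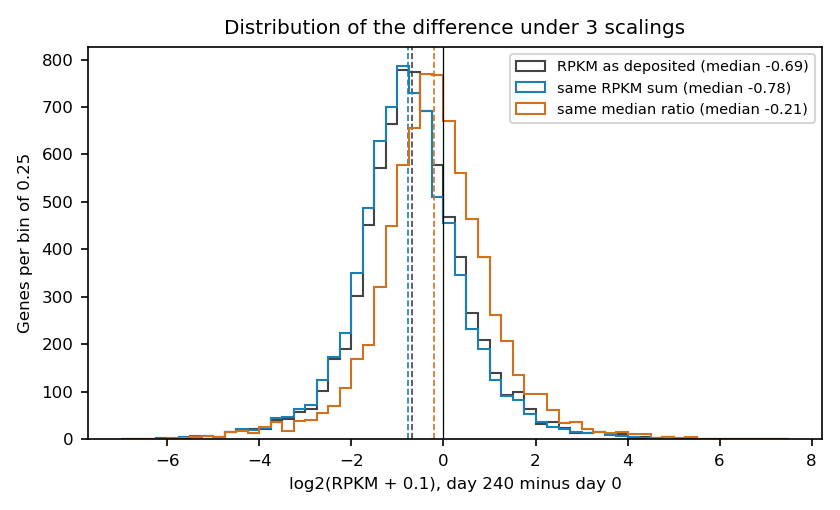
Distribution of the log2 difference, day 240 minus day 0, over the 7466 genes as deposited, with the same RPKM sum and with the same median ratio. The medians are -0.69, -0.78 and -0.21, marked by dashed lines, and the solid line marks no difference.

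The excess of lower genes also depended on how the genes were chosen. Of the 7466 genes, 5103 had at least 1 RPKM at both ages, 1918 at day 0 only and 445 at day 240 only. A gene that entered through the library in which it was high had to differ, so the counts above are a description and not support for a direction. Among the 5103 genes of at least 1 RPKM at both ages, 271 were 2-fold higher and 1302 lower as deposited, but 634 were higher and 513 lower with the same median ratio. At the edge of the choice, SFT2D1 was kept with 1.001 RPKM at day 0 and 0.232 RPKM at day 240, whereas MINPP1 was left out with 0.9997 RPKM and 0.235 RPKM. Of the chosen genes, 27 were listed at 0 at day 0 and 87 at day 240.

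**Figure D2:**
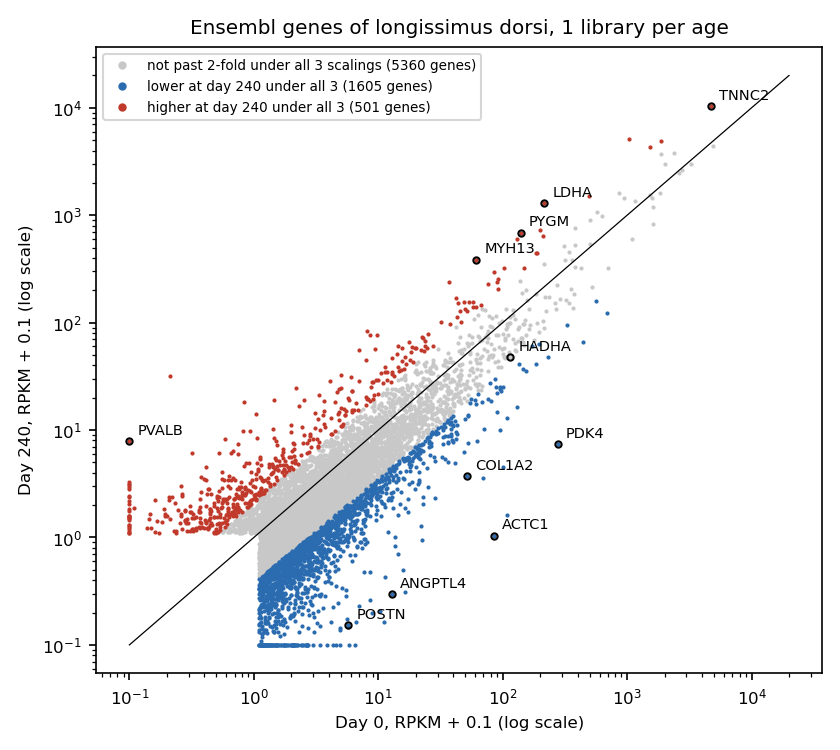
RPKM + 0.1 of the 7466 genes at day 0 (horizontal, log scale) and day 240 (vertical, log scale), as deposited, each point 1 gene, with the genes past 2-fold under all 3 scalings (501 higher, 1605 lower) in colour. More points lie below the diagonal than above it, while most of the highest genes lie near it or above it.

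As deposited and with the same sum, the highest genes of the muscle differed less at the median than the others. Among the 116 genes with a mean of at least 100 RPKM, the median log2 difference was -0.06 as deposited and -0.15 with the same sum. With the same median ratio it was 0.45, against -0.21 over all genes, so this order depended on the scaling. Of these 116 genes, 27 rose and 9 fell, against 6.71% and 21.5% of all genes. In the 1867 genes with the lowest mean RPKM the median was -0.97 as deposited and -0.53 with the same median ratio. TNNC2, the calcium-binding troponin C of fast fibres, was the highest gene at day 240 with 10378 RPKM, against 4717 RPKM at day 0 and 2877 RPKM at day 30. TPM1, a tropomyosin of the thin filament, rose from 1865 to 4947 RPKM with 2362 RPKM at day 30. An unnamed gene, ENSSSCG00000018006, was listed at 1030, 6920 and 5165 RPKM at day 0, day 30 and day 240, which made it the second highest at day 240. COX1, a mitochondrially encoded subunit of cytochrome c oxidase, was the highest at day 0 with 4917 RPKM, and it had 4406 RPKM at day 240.

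Most genes on the list of the adult fast sarcomere, the contractile unit of fast fibres, rose. The list also held genes of fast fibres outside the sarcomere, among them CASQ1, ATP2A1, PVALB, AMPD1 and PYGM. PYGM is on the list of glycolysis and glycogen too, and the myosin MYH13 was counted here as well. All 13 measured members of the list were higher at day 240 than at day 0 under each scaling. Of these 13, 10 rose, against 6.71% of all genes. The median log2 difference of the list was 1.55 as deposited, 1.46 with the same sum and 2.05 with the same median ratio. Its summed level was 11772 RPKM at day 0, 12078 RPKM at day 30 and 24663 RPKM at day 240, or 10.3%, 15.8% and 20.2% of the RPKM of each library. MYBPC2, the fast form of myosin-binding protein C, had 43.6, 152.9 and 152.5 RPKM at day 0, day 30 and day 240, so its level at day 30 was already at least that of day 240. CASQ1, which stores calcium in the sarcoplasmic reticulum of fast fibres, had 209.8, 420.1 and 641.8 RPKM. MYLK2, the kinase of the myosin light chain in skeletal muscle, had 53.7, 47.1 and 157.2 RPKM, and as deposited its rise lay wholly between day 30 and day 240. MYOZ1, a Z-disc protein of fast fibres, showed the same order with 42.9, 39.1 and 111.9 RPKM. AMPD1, the muscle form of AMP deaminase, rose early, with 12.8, 44.4 and 46.6 RPKM.

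PVALB, parvalbumin, a calcium buffer of fast fibres, was listed at 0 at day 0, at 19.7 RPKM (288 reads) at day 30 and at 7.77 RPKM (152 reads) at day 240. Its log2 difference of 6.30 was the highest of the named rises, but with day 0 at 0 its size rests on the added 0.1 RPKM. The 3 genes of the list that were not past 2-fold as deposited were ACTA1, the actin of skeletal muscle (2012, 3183 and 2998 RPKM, log2 difference 0.58), MYL1, an alkali light chain of fast myosin (2402, 1844 and 3798 RPKM, 0.66), and ATP2A1, the calcium pump of fast fibres (213.1, 352.3 and 350.8 RPKM, 0.72). With the same median ratio, each of these 3 was past 2-fold, with differences of 1.08, 1.16 and 1.22.

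The named developmental myosin heavy chains were higher at day 240, but the usual order of developmental and adult forms could not be followed here. MYH13, an extraocular myosin in its known role, rose from 61.1 through 302.0 to 385.1 RPKM. MYH3, the embryonic myosin, rose from 37.3 through 80.7 to 96.3 RPKM. MYH8, the perinatal myosin, was higher at day 240 as well, with 1888, 2442 and 3695 RPKM and a log2 difference of 0.97. MYH6, the atrial myosin of the heart, was listed at 378.8, 378.2 and 768.4 RPKM in muscle, against 4521 RPKM in the heart library. These genes are similar in sequence and can share reads, and no identifier was paired with the adult myosins MYH1, MYH2 and MYH4. The level of any single myosin gene is therefore uncertain.

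The list of developmental sarcomere genes, which includes MYH3 and MYH8, did not move together. It also held DES, NES, VIM and ENO1, which are not contractile proteins, and TNNI1 and ENO1 are on other lists too. Its counts and median thus do not describe developmental contractile forms alone. Of 12 members, 1 rose, MYH3, and 2 fell, against 6.71% and 21.5% of all genes. At the median, the log2 difference was -0.19 as deposited and 0.31 with the same median ratio. ACTC1, the actin of heart and of developing skeletal muscle, had the largest fall of all named genes, from 84.9 RPKM at day 0 through 7.23 RPKM at day 30 to 0.939 RPKM at day 240, with a log2 difference of -6.35. It had 4257 reads at day 0 and 43 reads at day 240. In the heart library ACTC1 had 228.9 RPKM. NES, nestin, an intermediate filament of immature muscle cells, fell from 2.23 through 1.15 to 0.341 RPKM. DES, desmin, the intermediate filament of mature muscle, had 313.1, 208.8 and 514.8 RPKM, a log2 difference of 0.72. TNNT2, the cardiac troponin T that is also made in developing skeletal muscle, was low at 4.03, 4.33 and 6.07 RPKM.

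Genes on the list of the slow sarcomere did not rise with those of the fast list. Both lists are described only in part, because 8 of 15 slow and 13 of 22 fast genes had a paired identifier. Of the 8 members, 0 rose and 2 fell, against 6.71% and 21.5% of all genes, so the share that fell was near that of all genes. Over the list, the median log2 difference was -0.08 as deposited and 0.42 with the same median ratio. TNNT1, slow troponin T, had 629.7, 472.0 and 987.1 RPKM, and TNNC1, the troponin C of slow and heart muscle, 317.6, 203.2 and 383.3 RPKM. Both were lowest at day 30 as deposited. TNNT1 and TNNI1, slow troponin I (45.1, 42.8 and 72.7 RPKM), had log2 differences of 0.65 and 0.69 as deposited and, past 2-fold, of 1.15 and 1.19 with the same median ratio. The members that fell were CSRP3, a Z-disc protein linked to mechanical stretch, from 326.5 through 11.4 to 94.8 RPKM, and ANKRD2, a stretch-responsive ankyrin repeat protein, from 20.9 through 4.22 to 3.04 RPKM. ANKRD1, a related ankyrin repeat protein of heart and muscle, was among the 15 largest named falls, from 21.9 through 4.66 to 1.18 RPKM. The genes of the slow list that fell are known as stretch-responsive proteins rather than as slow contractile forms.

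In excitation-contraction coupling, which links the nerve signal to calcium release, 1 of 12 members rose and 0 fell, against 6.71% and 21.5% of all genes. Their median log2 difference was 0.36 as deposited and 0.87 with the same median ratio, in both cases above that of all genes. SLN, sarcolipin, a small inhibitor of the calcium pump, was the member that rose, from 91.1 through 165.0 to 252.6 RPKM. CACNA1S, the voltage sensor of the transverse tubule, had 17.9, 35.6 and 25.2 RPKM, highest at day 30. Genes of the neuromuscular junction were mostly below 1 RPKM, with 2 of 9 as members. NCAM1, a cell adhesion molecule of immature and denervated fibres, fell from 1.42 through 1.15 to 0.346 RPKM. CHRNA1, the alpha subunit of the acetylcholine receptor, was below the limit with 0.911 RPKM at day 0 and was listed at 0 at day 240.

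**Figure D3:**
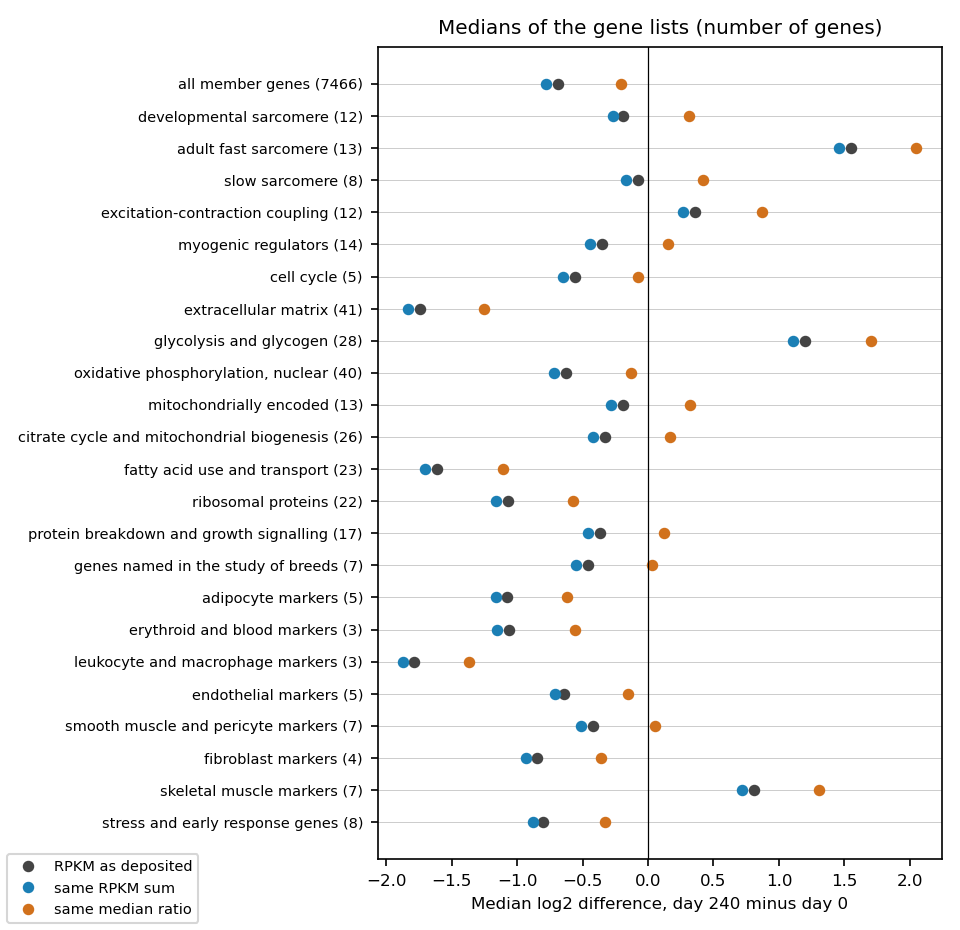
Median log2 difference, day 240 minus day 0, of the gene lists with at least 3 members (number of genes in parentheses), under the 3 scalings. The adult fast sarcomere (1.55 as deposited) and glycolysis and glycogen (1.20) lie to the right of 0 under each scaling, and the extracellular matrix (-1.74) and fatty acid use (-1.61) lie to the left.

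Genes of glycolysis and glycogen use rose broadly. Of 28 members, 16 rose and 3 fell, against 6.71% and 21.5% of all genes. The median log2 difference was 1.20 as deposited, 1.11 with the same sum and 1.70 with the same median ratio. Their summed level was 3200 RPKM at day 0, 5799 RPKM at day 30 and 10072 RPKM at day 240, which was 2.80%, 7.57% and 8.26% of the RPKM of each library. LDHA, the lactate dehydrogenase form that favours lactate, was the enzyme with the largest difference, with 214.5, 489.5 and 1301 RPKM (log2 difference 2.60). GAPDH, which oxidizes the triose phosphate, rose from 1532 through 2466 to 4325 RPKM. ENO3, the muscle enolase, had 497.1, 887.2 and 1499 RPKM. PKM, pyruvate kinase, had 199.4, 471.6 and 721.0 RPKM. These enzymes had their middle level at day 30 under each scaling, except PKM, which was highest at day 30 with the same sum.

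The rise covered glycogen breakdown as well as the glycolytic enzymes. PYGM, the glycogen phosphorylase of muscle, rose from 139.4 through 435.0 to 688.9 RPKM. PHKA1, a regulatory subunit of phosphorylase kinase, had the same course with 5.92, 19.9 and 31.2 RPKM. PFKM, the muscle phosphofructokinase that sets the pace of glycolysis, had 76.4, 133.5 and 228.6 RPKM. GPI, glucose-6-phosphate isomerase, was highest at day 30, with 4.55, 29.4 and 22.4 RPKM. PGM2L1, which makes glucose-1,6-bisphosphate, a cofactor of sugar phosphate conversion, had the second-ranked named rise, from 0.483 through 1.298 to 8.12 RPKM.

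The 3 members of this list that fell were of different steps. PFKL, the liver phosphofructokinase, fell from 2.50 through 0.593 to 0.740 RPKM. SLC16A3, a lactate exporter of glycolytic cells, fell from 1.66 through 1.18 to 0.485 RPKM, and GBE1, the glycogen branching enzyme, from 5.79 through 0.639 to 1.88 RPKM. Pairs of forms of an enzyme went opposite ways as deposited. ENO1, the enolase of most tissues, had 9.39, 5.57 and 3.32 RPKM (log2 difference -1.47), while ENO3 rose. PGAM1 had 10.5, 1.59 and 5.70 RPKM (-0.87), while PGAM2, its muscle form, had 72.0, 256.7 and 130.4 RPKM (0.86). HK1, the general hexokinase, had 2.48, 1.23 and 0.900 RPKM (-1.37) and HK2, the muscle form, 1.30, 0.551 and 2.18 RPKM (0.70). The signs of these 3 pairs stayed opposite with the same median ratio, at -0.98 for ENO1, -0.37 for PGAM1 and -0.91 for HK1, though ENO3 was the only gene of these pairs past 2-fold under all 3 scalings.

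Genes of fatty acid use had the opposite course. Of 23 members, 0 rose and 13 fell, against 6.71% and 21.5% of all genes. All 23 had a lower level at day 240 as deposited. At least 1 RPKM was reached by all 23 at day 0 but by 16 at day 240. The others became members through day 0 only and had to be lower as deposited. The median log2 difference was -1.61 as deposited, -1.70 with the same sum and -1.11 with the same median ratio, and the summed level was 548.6, 192.2 and 227.2 RPKM at day 0, day 30 and day 240. Most of the difference in this sum was thus present by day 30. ACSL1, which activates long-chain fatty acids, fell from 100.1 through 30.4 to 25.3 RPKM. CPT1B, the muscle enzyme that admits fatty acids to the mitochondrion, fell from 23.5 through 10.6 to 7.83 RPKM. ACADL, a dehydrogenase of long-chain fatty acids, fell from 34.5 through 10.6 to 8.75 RPKM. ACADM, which acts on medium-chain fatty acids, had 54.9, 21.4 and 42.9 RPKM and was not past 2-fold (-0.36).

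The falls included regulators and lipid-droplet genes. ANGPTL4, an inhibitor of lipoprotein lipase, fell from 12.8 through 2.57 to 0.199 RPKM, from 1126 reads to 16. PLIN5, a lipid-droplet protein of oxidative tissues, fell from 7.27 through 1.26 to 0.698 RPKM, and PPARA, a nuclear receptor that drives fatty acid oxidation genes, from 3.43 through 0.679 to 0.986 RPKM. CPT1A and CPT2, of the same transport route as CPT1B, had log2 differences of -2.76 and -2.41. PDK4, which blocks pyruvate dehydrogenase and so spares glucose, and which was placed on the list of the citrate cycle, fell from 277.0 through 94.2 to 7.27 RPKM (log2 difference -5.23), from 35196 reads to 843. PDK2, another kinase of the same complex, had 2.53, 3.06 and 3.66 RPKM.

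Nuclear genes of the respiratory chain had a median close to that of all genes. Of 40 nuclear genes of oxidative phosphorylation, 0 rose and 4 fell, against 6.71% and 21.5% of all genes. Their median log2 difference was -0.63 as deposited and -0.13 with the same median ratio, near those of all genes (-0.69 and -0.21). The members that fell were the complex I subunits NDUFB7 (61.0, 9.43 and 17.6 RPKM) and NDUFS6 (11.1, 6.63 and 3.06 RPKM) and the cytochrome oxidase subunits COX7A2 (11.9, 4.68 and 2.14 RPKM) and COX8A (4.13, 0.131 and 0.836 RPKM). The 13 mitochondrially encoded genes had 0 rises and 0 falls, against the same 6.71% and 21.5%. Their median flipped sign with the scaling, from -0.19 as deposited to 0.32 with the same median ratio. They held 17.4% of the RPKM at day 0, 11.2% at day 30 and 14.2% at day 240. Of 26 genes of the citrate cycle and mitochondrial biogenesis, 1 rose and 2 fell, again fewer falls than the 21.5% of all genes. CKMT2, the creatine kinase of muscle mitochondria, rose from 24.4 through 21.3 to 58.1 RPKM. Besides PDK4, PPARGC1B, a coactivator of mitochondrial genes, fell from 1.20 through 1.13 to 0.183 RPKM.

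**Figure D4:**
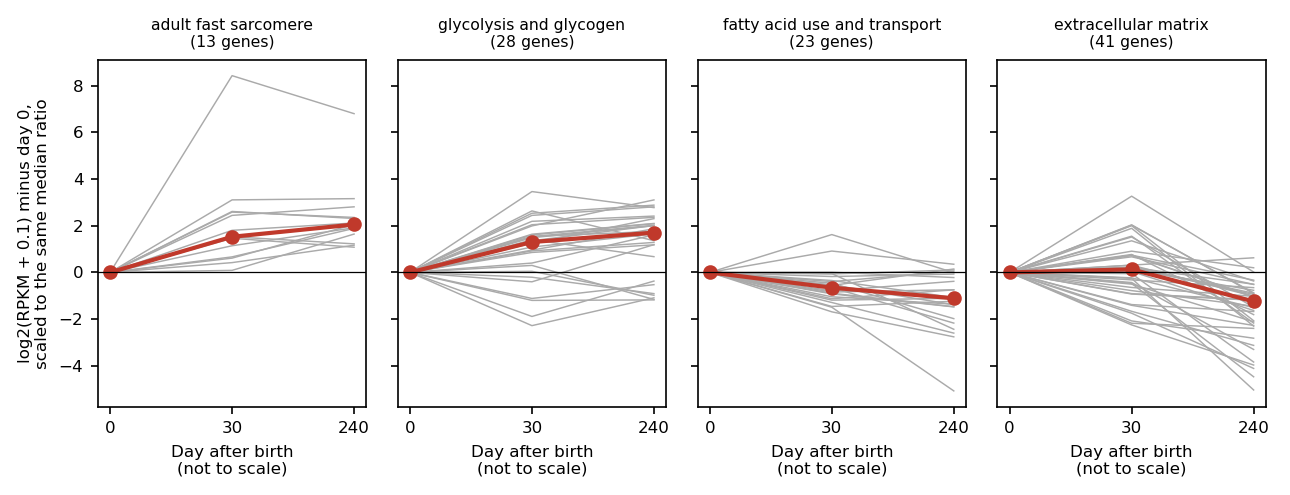
Level of each member of 4 gene lists at day 0, day 30 and day 240 as log2(RPKM + 0.1) minus day 0, with the same median ratio, as grey lines, and their median in red (days not to scale). At day 30 the medians were 1.53 for the adult fast sarcomere, 1.30 for glycolysis and glycogen, -0.65 for fatty acid use and 0.13 for the extracellular matrix, and at day 240 they were 2.05, 1.70, -1.11 and -1.25.

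Genes of the extracellular matrix, the connective tissue between fibres, fell broadly. Of 41 members, 0 rose and 28 fell, against 6.71% and 21.5% of all genes, and as deposited 35 were past 2-fold. All 41 had at least 1 RPKM at day 0, but only 23 did at day 240. The others became members through day 0 only and had to be lower as deposited, so these counts are a description. The median log2 difference was -1.74 as deposited, -1.83 with the same sum and -1.25 with the same median ratio. The summed level was 375.6, 291.2 and 122.8 RPKM at day 0, day 30 and day 240. The plot of the 3 ages shows that, with the same median ratio, the matrix median was near 0 at day 30 (0.13), unlike that of fatty acid use (-0.65). COL1A2, a chain of the main fibrillar collagen, fell from 51.2 through 21.8 to 3.61 RPKM, from 9316 reads to 599. COL3A1, the collagen of fine reticular fibres, had 24.6, 58.1 and 9.22 RPKM, highest at day 30, with a log2 difference of -1.40 as deposited and -0.91 with the same median ratio. The basement membrane collagen COL4A2 was highest at day 30 too, with 6.26, 13.5 and 0.841 RPKM, and it fell from day 0 to day 240. COL6A1, of the microfibrils around fibres, had 3.83, 6.55 and 0.545 RPKM.

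Steep falls were seen in matrix proteins of tendon, cartilage and elastic fibres, of which COMP and COL11A1 are named for the size of their fall and are not on the list. COMP, a cartilage and tendon matrix protein, had 11.1 RPKM at day 0 (974 reads), was listed at 0 at day 30 and had 0.0623 RPKM (5 reads) at day 240. POSTN, periostin, fell from 5.62 through 2.69 to 0.0526 RPKM. ELN, elastin, fell from 4.09 through 1.68 to 0.0628 RPKM, and FBN2, the fibrillin of early microfibrils, from 2.32 through 1.28 to 0.0488 RPKM. COL11A1, a minor fibrillar collagen, fell from 6.89 through 0.701 to 0.131 RPKM. THBS1, thrombospondin 1, fell from 22.3 through 3.78 to 0.845 RPKM. In contrast, DCN, decorin, a small proteoglycan of mature collagen fibres, had 23.1, 16.5 and 25.1 RPKM (0.12), and FN1, fibronectin, 8.14, 8.83 and 6.60 RPKM (-0.30). As deposited, DCN was the only 1 of the 41 members that was not lower at day 240.

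Markers of other cells were measured beside these lists. Each of these lists had few members, and their counts stand beside 6.71% of all genes that rose and 21.5% that fell. The fibroblast markers with an identifier summed to 65.9, 83.4 and 41.8 RPKM at day 0, day 30 and day 240, and 1 of their 4 members fell (LUM, 15.7, 5.73 and 5.39 RPKM), while 3 of the 4, DCN, LUM and COL3A1, are on the matrix list too. Of the 5 endothelial and 7 smooth muscle and pericyte members, 0 rose and 0 fell, with summed levels of 20.9, 19.01 and 13.5 RPKM for endothelium and, with DES included, 350.2, 242.6 and 547.0 RPKM for smooth muscle. Leukocyte and macrophage markers summed to 7.40, 4.89 and 3.36 RPKM over 21 genes, of which 11 were listed at 0 at day 0 and 8 at day 240. Of their 3 members, 2 fell, against 21.5% of all genes, but at day 240 0 of the 21 genes had at least 1 RPKM. The 3 thus became members through day 0 only. Over the 15 leukocyte genes with any value above 0, the median log2 difference was 0.26. The adipocyte markers summed to 28.3, 53.4 and 76.5 RPKM over 15 genes, and of their 5 members 1 rose and 1 fell. Most of this sum was GPD1, a glycerol phosphate enzyme that is also on the list of glycolysis and glycogen, which rose from 17.6 through 46.4 to 66.5 RPKM, while CFD, the adipocyte protease adipsin, fell from 1.41 through 0.686 to 0.411 RPKM. PLIN1, which coats the fat droplet, had 0.177 RPKM at day 0 and 0.0194 RPKM at day 240. The part of other cell types in the fall of the matrix was not tested.

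Among the blood markers, HBB, a globin of red cells, had 19.6, 7.27 and 9.36 RPKM (-1.06). TFRC, the transferrin receptor that takes up iron and is also made by muscle fibres, fell from 153.6 through 36.6 to 35.1 RPKM, while SLC4A1, the anion exchanger of red cells, had 0.00590 RPKM at day 0 and was listed at 0 at day 240.

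Regulators of muscle formation moved in both directions. Of 14 members, 2 rose and 3 fell, against 6.71% and 21.5% of all genes, with a median log2 difference of -0.35 as deposited and 0.15 with the same median ratio. MYF6, the myogenic factor that persists in mature fibres, rose from 6.56 through 4.94 to 17.7 RPKM. MSTN, myostatin, which limits muscle growth, rose from 1.42 through 1.38 to 5.20 RPKM. MYF5, a factor of muscle precursor cells, fell from 1.12 RPKM (38 reads) through 0.0860 to 0.0322 RPKM (1 read), and FST, follistatin, which binds myostatin, from 1.07 through 1.02 to 0.182 RPKM. PLAGL1, an imprinted growth regulator, was the third that fell, from 1.97 through 0.658 to 0.274 RPKM. Both genes of the pair of myostatin and its binding protein were near 1 RPKM at birth, and their levels lay on opposite sides at day 240. MYOD1, a determinant of the muscle lineage, was below the limit at 0.870, 1.01 and 0.877 RPKM.

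Genes of dividing cells were low already at birth. Of 31 cell cycle genes with an identifier, 5 were members, of which 0 rose and 2 fell, against 6.71% and 21.5% of all genes. Those that fell were the tubulins TUBA1B (32.2, 2.67 and 5.57 RPKM) and TUBB (21.6, 5.08 and 5.27 RPKM), which are also part of the cytoskeleton of resting cells. TOP2A, which untangles DNA in dividing cells, had 0.157, 1.63 and 0.257 RPKM, and CDK1, the kinase of mitosis, was listed at 0 at day 0 and day 240 and had 0.226 RPKM at day 30. Of these 31 genes, 4 had at least 1 RPKM at day 0, 10 at day 30 and 5 at day 240, so day 30, the shallowest library, had the most.

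Of 22 ribosomal protein genes among the members, 0 rose and 4 fell, against 6.71% and 21.5% of all genes, and each was lower at day 240 as deposited (median -1.07, and -0.57 with the same median ratio). RPLP2, of the ribosomal stalk, was the highest of them, and it fell from 565.5 through 157.9 to 159.4 RPKM. The list held 77 genes, of which 24 had a paired identifier, and it is therefore described only in part.

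Genes of protein breakdown and growth signalling included 4 of 17 that rose and 1 that fell, against 6.71% and 21.5% of all genes. The muscle ubiquitin ligases FBXO32 (11.7, 6.30 and 34.5 RPKM) and TRIM63 (91.4, 80.6 and 204.8 RPKM) rose, both of them after day 30 as deposited. IRS1, a relay of the insulin receptor, rose from 2.34 through 2.91 to 10.6 RPKM. FOXO4, a transcription factor that insulin signalling restrains, rose from 0.754 through 1.36 to 2.88 RPKM. FBXO30, another ubiquitin ligase of muscle, fell from 11.2 through 1.35 to 3.38 RPKM. FBXO40, a muscle ligase that targets IRS1, was named for its rise from 8.01 through 26.0 to 84.0 RPKM, so the ligase and its target were both higher at day 240.

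Of 8 stress and early response genes, 0 rose and 3 fell, against 6.71% and 21.5% of all genes. HSP90AA1, a stress-inducible chaperone, fell from 184.8 through 23.9 to 41.1 RPKM, MYC, a growth-related transcription factor, from 1.66 through 1.13 to 0.147 RPKM, and GADD45B, a gene of the stress response, from 2.61 through 2.10 to 0.308 RPKM. FOS, an early response gene that tissue handling can raise, had 1.36, 2.58 and 1.77 RPKM. RNA quality values were not given in the labels.

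Among the genes that the study had discussed for its comparison of breeds, 7 were members, and 1 of them rose and 0 fell, against 6.71% and 21.5% of all genes. ANK1, an ankyrin that ties the sarcoplasmic reticulum to the sarcomere, rose from 9.87 through 29.8 to 29.1 RPKM. UCP3, a mitochondrial carrier of muscle, had 2.63, 4.76 and 1.85 RPKM (-0.49). GHR, the growth hormone receptor, had 4.55, 2.45 and 7.67 RPKM, with a log2 difference of 0.74 as deposited and 1.24 with the same median ratio.

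**Figure D5:**
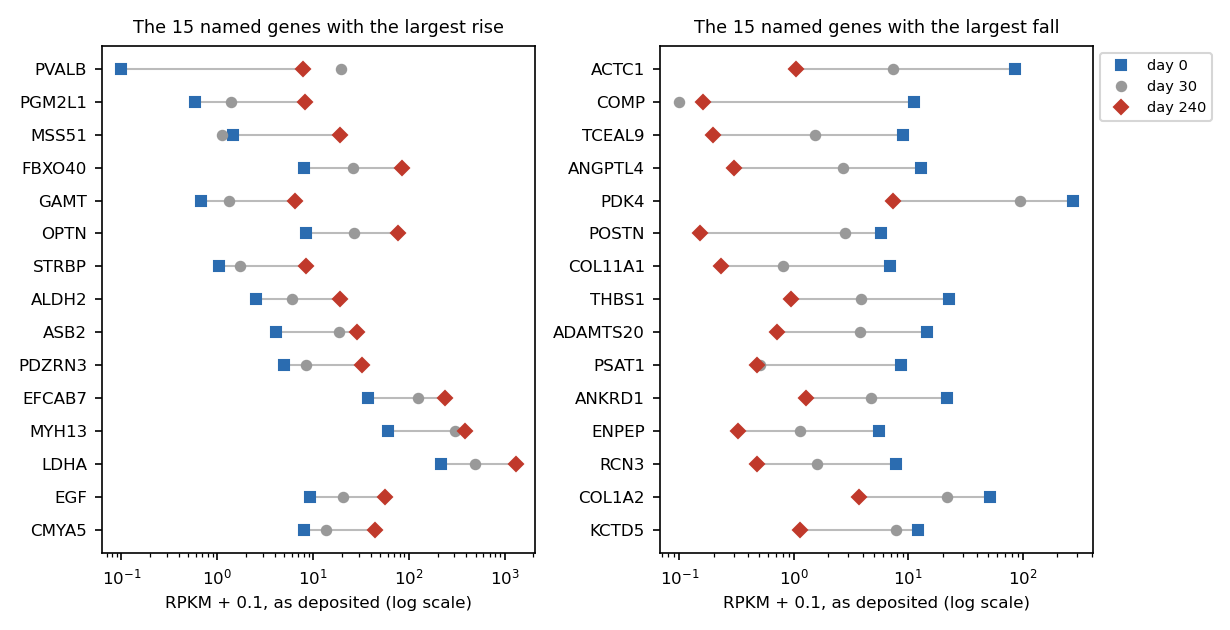
RPKM + 0.1 as deposited (log scale) at day 0, day 30 and day 240 for the 15 largest named rises and the 15 largest named falls. Lines join day 0 and day 240, and day 30 lies outside the joined range for PVALB, MSS51 and COMP.

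Outside the lists, the largest rises included genes of metabolism and of protein turnover. MSS51, a regulator of mitochondrial metabolism in fast fibres, rose from 1.35 through 1.01 to 19.03 RPKM, nearly all of it after day 30. GAMT, which makes creatine, rose from 0.580 through 1.22 to 6.35 RPKM. ALDH2, the mitochondrial aldehyde dehydrogenase, had 2.45, 5.92 and 18.9 RPKM. OPTN, optineurin, a receptor of autophagy, rose from 8.41 through 26.5 to 76.4 RPKM. ASB2, a ubiquitin ligase subunit of muscle, had 3.97, 18.4 and 28.4 RPKM, and EGF, epidermal growth factor, 9.28, 20.5 and 56.6 RPKM. CMYA5, a muscle protein at the costamere, and PDZRN3, a ubiquitin ligase of muscle differentiation, were the others with a known place in muscle, at 44.6 and 32.2 RPKM at day 240 against 7.91 and 4.90 RPKM at day 0. STRBP and EFCAB7 complete the 15 largest rises, with log2 differences of 2.99 and 2.69.

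Among the largest falls outside the lists, PSAT1, an enzyme of serine synthesis, fell from 8.51 through 0.406 to 0.374 RPKM. ADAMTS20, a secreted metalloprotease, fell from 14.4 through 3.70 to 0.609 RPKM, and RCN3, a calcium-binding protein of the endoplasmic reticulum linked to collagen production, from 7.64 through 1.504 to 0.375 RPKM. ENPEP, an aminopeptidase that cleaves angiotensin, had 5.42, 1.04 and 0.225 RPKM. TCEAL9 and KCTD5 fell to 0.0982 and 1.02 RPKM, from 8.88 and 11.9 RPKM at day 0. The day 240 level of TCEAL9 rests on 1 read. Some named genes overlap another gene in the RefSeq annotation, among them FBXO40 (HCLS1), MSS51 (PPP3CB), PDK4 (ASB4), PVALB (NCF4), STRBP (RABGAP1) and ANKRD1 (RPP30), and reads of such a pair can be hard to assign where the pair shares a strand.

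Of the 501 genes that rose, 276 had a symbol and 482 had at least 20 reads in the higher library. As deposited, the 95% counting interval of the read ratio lay wholly past 2-fold for 379 of these 501. It did so for 1502 of the 1605 that fell, but these had to stay past 2-fold with day 240 multiplied by 1.42. Their share was thus largely set by how they were chosen. Over all 7466 genes, the interval lay past 2-fold for 380 higher and 1909 lower. As deposited, 557 and 2773 genes were past 2-fold. The interval does not cover differences between animals or libraries. With the same median ratio, the level at day 30 lay between those of day 0 and day 240 for 356 of the 501 genes that rose (71.1%), for 958 of the 1605 that fell (59.7%) and for 1401 of the 5360 others (26.1%). The wider gap by which the first 2 groups were chosen leaves more room for such a middle value. As deposited, the shares were 58.5%, 61.5% and 20.9%.

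The 8 other organs at day 240 gave a last view of the same genes. Among the 501 genes that rose, heart was the organ with the highest level for 129 (25.7%), whereas it was the highest for 157 of the 1605 that fell (9.78%) and for 842 of the 5360 others (15.7%), with the organs scaled to the same median ratio. Ovary was the highest organ for 49 of the genes that rose (9.78%), for 332 of those that fell (20.7%) and for 789 of the others (14.7%). Adipose tissue was the highest for 43 (8.58%), 171 (10.7%) and 320 (5.97%). COL1A2, for example, had 309.5 RPKM in adipose tissue and POSTN 97.2 RPKM, against 3.61 and 0.0526 RPKM in muscle of the same age. Each organ was 1 library as well.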

How the data were processed

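The authors depleted ribosomal RNA, mapped paired-end reads with TopHat 1.3.2, assembled transcripts with Cufflinks, counted reads with htseq-count and deposited RPKM, with 1 value for each of 32420 features in each library. The genome build is not given in the sources used here, so no coordinates are printed. Symbols came from a table of Ensembl identifiers (11654 of 21607 matched).

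Computations used Python 3.11.15, numpy 2.4.6, pandas 2.3.3 and scipy 1.17.1. Genes of at least 1 RPKM at day 0 or day 240 were compared on the log2(RPKM + 0.1) scale with a limit of 2-fold. With 1 library per age there was no test. Whole reads were recovered from the steps of the RPKM values for 32420 of 32420 features, at a tolerance of 1e-06. They are lower bounds for features above 0 in 1 to 3 libraries. Exact binomial 95% intervals of read ratios cover counting error only. In simulated data of 21607 genes at the depth of the day 0 and day 240 libraries, the reads of 16112 of 16202 genes above 0 in at least 4 libraries were recovered. Of genes with at least 20 reads at day 0, 100 of 100 raised 4-fold and 96 of 100 lowered 4-fold were called, as were 5 of 9722 unchanged ones. The simulated ages differed by counting error and the set changes only. These counts thus do not cover differences between animals or libraries, a shift of most genes, or genes with fewer reads.

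The genes and the 26 lists were chosen with earlier results of these data known. Named were the 15 largest rises and falls among genes with a symbol, at least 5 RPKM in either library and the same direction past 2-fold under 3 scalings, the 10 highest genes of each library, and list members that define a list or differ most in it. Genes of the lists under 1 RPKM, of other organs or chosen as a counterpart were named after their values were seen. Alternatives were other scalings, pseudocounts, filters and fold limits.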

Additional observations from a re-analysis of the deposited data

How the results depend on the processing

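The counts of genes past 2-fold moved with most choices, while more genes were lower than higher at day 240 under every alternative run on all members. With the same median ratio, 1011 genes were higher and 1605 lower, with a median of -0.21. Without mitochondrially encoded genes in the sum, the median was -0.83. With a pseudocount of 1, the counts were 338 and 1544 and the median -0.50. With at least 5 RPKM in either library, 211 and 914 of 2679 genes were past 2-fold, and with any value above 0, 1313 and 4639 of 14364, with a median of -0.53. A limit of 1.5-fold gave 926 higher genes, and a limit of 4-fold gave 169 higher and 773 lower. Genes past 2-fold under all 3 scalings, a count added after seeing the data, numbered 1605 among the lower ones.

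Among gene lists, the median of adipocyte markers was 1.47 with at least 5 RPKM (2 genes) and that of leukocyte and macrophage markers 0.26 with any value above 0 (15 genes), both on the other side of 0 from the reported value. Of the 333 named genes and list members compared, 308 moved beyond their counting interval with the same median ratio and 108 with a pseudocount of 1. Depth limits low genes: 22 members had 1 to 3 reads at day 0 and 109 at day 240. No paired analysis was possible because there was 1 library per stage, and for the same reason no replicate could be left out. Protocol and RNA quality were not given for each library, so their part in the differences was not tested.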
